A study of Homo sapiens with 6 samples.

Results

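The lipocalins are a family of small, mostly secreted carrier proteins, and 9 of their genes were followed here in sorted cells of the ovarian carcinoma line IGROV1: PTGDS, AMBP, LCN2, APOD, RBP4, PAEP, APOM, ORM1 and ORM2. They were taken as family members, with every probe set annotated to them, and the family was selected on measured values: PTGDS and AMBP had stood out between the sorted populations and LCN2 between arrays of high and low ASNS. ASNS, asparagine synthetase, is a gene switched on by amino acid shortage, and the arrays were read on either side of an ASNS log2 value of 11. The 9 genes had 15 probe sets, 13 of them specific to 1 member and 2 shared by ORM1 and ORM2, so that 8 of the 9 members could be given a value of their own among the 19775 genes measured. ORM2 had no probe set of its own.

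IGROV1 is an established human line, grown as a culture and sorted after staining with Hoechst 33342, a DNA dye. Side population (SP) cells keep little of the dye, and non-SP cells lie outside that gate. There were 3 samples of each, with no treatment beyond the stain and the sort, and each sample was hybridised to 1 array after whole-transcriptome amplification of its RNA. All groups come from 1 line. The samples are labelled biological replicates but not tied to separate cultures, so standard errors cover the spread between these samples, which may be technical. Values are log2 expression after RMA, which puts all arrays on 1 distribution. The median per array was 5.59 to 5.64 and the negative controls averaged 2.82 to 2.96. The ovarian epithelial markers PAX8 (10.14 to 10.67), EPCAM (12.00 to 12.29) and FOLR1 (12.80 to 13.16) were high on every array, whereas MUC16 (4.90 to 5.48) and MSLN (4.77 to 5.58) stayed under the array medians. At an unadjusted limma p under 0.05, 1 of the 10 listed was higher and 1 lower in SP samples. Over all genes these shares were 3.07% and 3.71%. KRT7 was higher (0.79, SE 0.18, limma adjusted p = 0.451), on 3 of its 4 probe sets. KRT8 was lower (-0.71, SE 0.22, limma adjusted p = 0.611).

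A lipocalin folds into a barrel of beta strands around a pocket that holds a small hydrophobic molecule, and most members travel through body fluids with their cargo. PTGDS is the lipocalin-type prostaglandin D synthase, an enzyme that makes prostaglandin D2 and a carrier of retinoids. AMBP encodes a precursor that is cut into alpha-1-microglobulin, a haem-binding lipocalin, and bikunin, a protease inhibitor; it is best known from the liver. LCN2, also called neutrophil gelatinase-associated lipocalin, binds the siderophores with which bacteria gather iron, and is induced by inflammatory signals in epithelia. APOD carries arachidonic acid and steroids, RBP4 retinol, and APOM sphingosine 1-phosphate on lipoproteins. PAEP, or glycodelin, is made by secretory endometrium, and ORM1 and ORM2 are acute phase plasma proteins that bind drugs.

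The upstream sequences of PTGDS, LCN2 and AMBP are shown because these members carry the differences described here, the first and last between SP and non-SP samples and LCN2 between arrays. They come from RefSeq on GRCh38.p14 and hold the 250 bases before the annotated start, 5′ to 3′ on the gene's strand: PTGDS on the plus strand at chr9:136977254-136977503, LCN2 on the plus strand at chr9:128149203-128149452, and AMBP on the minus strand at chr9:114078301-114078550. Capitals mark matches to the motifs searched.
PTGDS: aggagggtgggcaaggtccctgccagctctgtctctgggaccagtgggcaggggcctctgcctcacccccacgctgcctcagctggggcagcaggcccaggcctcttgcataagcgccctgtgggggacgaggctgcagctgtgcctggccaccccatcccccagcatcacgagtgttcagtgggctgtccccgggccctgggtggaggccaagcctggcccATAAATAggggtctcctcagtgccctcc
LCN2: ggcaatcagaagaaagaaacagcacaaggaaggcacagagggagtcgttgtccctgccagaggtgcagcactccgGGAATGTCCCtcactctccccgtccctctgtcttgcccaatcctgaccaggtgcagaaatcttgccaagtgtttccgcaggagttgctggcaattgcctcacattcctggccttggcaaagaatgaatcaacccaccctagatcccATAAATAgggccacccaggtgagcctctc
AMBP: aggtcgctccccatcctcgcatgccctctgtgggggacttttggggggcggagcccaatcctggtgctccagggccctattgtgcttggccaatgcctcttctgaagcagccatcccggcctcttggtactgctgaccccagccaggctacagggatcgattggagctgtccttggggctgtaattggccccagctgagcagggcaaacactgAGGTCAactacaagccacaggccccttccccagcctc

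Motifs were looked for on both strands in all 35116 such windows, which include 7 of the 9 members. The run ATAAATA, similar to the box that positions the start of many genes, was found in 4.6% of windows and begins 28 bases before the start in PTGDS and 29 bases before it in LCN2. In both it lies inside the longest run that these sequences share, CCCATAAATAGGG, which is 13 bases long. Read on the gene's strand only, that run occurs in 2 of the 35116 windows, those of PTGDS and LCN2. That run was found by comparing the 2 windows, and the motifs were picked with the sequences in view, so these matches are descriptions. The kappa B consensus, the site read by NF-kB, was found in 9.96% of windows. It occurs in LCN2, where GGAATGTCCC begins 175 bases before the start as a match on the opposite strand, and in PAEP, where it begins 167 bases before the start, and is not in the windows of PTGDS or AMBP. AGGTCA, the half-site of many nuclear receptors, was found in 12.1% of windows, among them AMBP, where it begins 37 bases before the start. TGATGNAA, a pattern of the composite sites bound by ATF4 with C/EBP proteins, was found in 3.14% of windows. It is present in an ASNS window, where it reads TGATGAAA 68 bases before the start, and among the members in an RBP4 window, 225 bases before the start on the opposite strand. It is not in the windows of PTGDS, LCN2 or AMBP. TATAAA was found in 10.7% of windows, in ORM1 and RBP4 among the members. This motif and ATAAATA can overlap, but did not in the members' windows.

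PTGDS was lower in SP than in non-SP samples on all 3 of its probe sets. This contrast is one that chose the gene, so its values are a description and carry no test. On the probe set with the highest mean, 211748_x_at, the SP samples had log2 levels of 7.83, 7.03 and 6.63 and the non-SP samples 9.72, 9.18 and 9.42. Every SP value lay below every non-SP value, and the nearest pair of samples differed by -1.36, SP minus non-SP. SP samples averaged 7.16 ± 0.61 (SD, n = 3), against 9.44 ± 0.27 (SD, n = 3) for non-SP samples, a difference of -2.28 (SE 0.32), or 4.86-fold lower. In sorted bulk RNA, fewer cells with a transcript and less of it per cell cannot be told apart.

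On 212187_x_at PTGDS read 6.52, 6.23 and 6.21 in SP and 8.68, 7.98 and 8.02 in non-SP samples, a difference of -1.90 (SE 0.22). On 211663_x_at it read 6.59, 6.04 and 6.75 in SP and 7.90, 7.59 and 7.30 in non-SP samples, a difference of -1.14 (SE 0.24). The groups were apart on each probe set, while the size of the difference fell from 4.86-fold to 3.74-fold and 2.20-fold across them. All 3 carry the _x_ suffix, which the array's maker gives to probe sets with probes that may also match other transcripts, and the share of such signal is not known here.

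PTGDS also varied inside each sorted population. On 211748_x_at and 212187_x_at the SP sample with low ASNS, SP 1, had the highest SP value, and the non-SP sample with high ASNS, non-SP 2, had the lowest non-SP value. That order did not hold on 211663_x_at, where SP 3 was the highest SP sample and non-SP 3 the lowest non-SP sample. Among arrays with ASNS above 11 the SP minus non-SP difference on 211748_x_at was -2.36, and among those below it was -1.74.

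AMBP was lower in SP samples on both of its probe sets, again by values that chose it. On 205477_s_at the SP samples read 6.27, 6.46 and 6.63 and the non-SP samples 7.68, 7.40 and 7.50. The groups lay apart, and the spread within each was small beside the distance between them. The means were 6.45 ± 0.18 (SD, n = 3) and 7.53 ± 0.14 (SD, n = 3), a difference of -1.08 (SE 0.15), or 2.11-fold lower. On 214425_at the SP samples read 6.46, 6.59 and 6.58 and the non-SP samples 7.48, 7.42 and 7.37, a difference of -0.88 (SE 0.12), or 1.84-fold lower. Within arrays of high ASNS the 205477_s_at difference was -0.85, and within those of low ASNS -1.33.

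AMBP is a liver gene, so hepatocyte markers were read beside it. The 6 markers had a summed linear level of 252.5 to 293.2 in SP and 317.0 to 431.0 in non-SP samples, so these sums also lay apart, and 1 of the 6 was at an unadjusted limma p under 0.05, FGB, the fibrinogen beta chain (-1.29, SE 0.43, limma adjusted p = 0.628). FGB read 5.94 to 7.60 in non-SP samples, the highest of them in non-SP 2. ALB, the defining albumin gene, read 3.90 to 4.31 in SP and 3.81 to 4.53 in non-SP samples, which overlap. APOA2, CYP3A4, SERPINC1 and TAT overlapped as well. FGB was thus the only marker of the 6 with groups apart, and the sums include it. Over all genes, 3.71% were lower in SP at an unadjusted limma p under 0.05, and 7.1% had groups apart with SP lower. The part of these markers in the AMBP values was not tested.

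**Figure D1:**
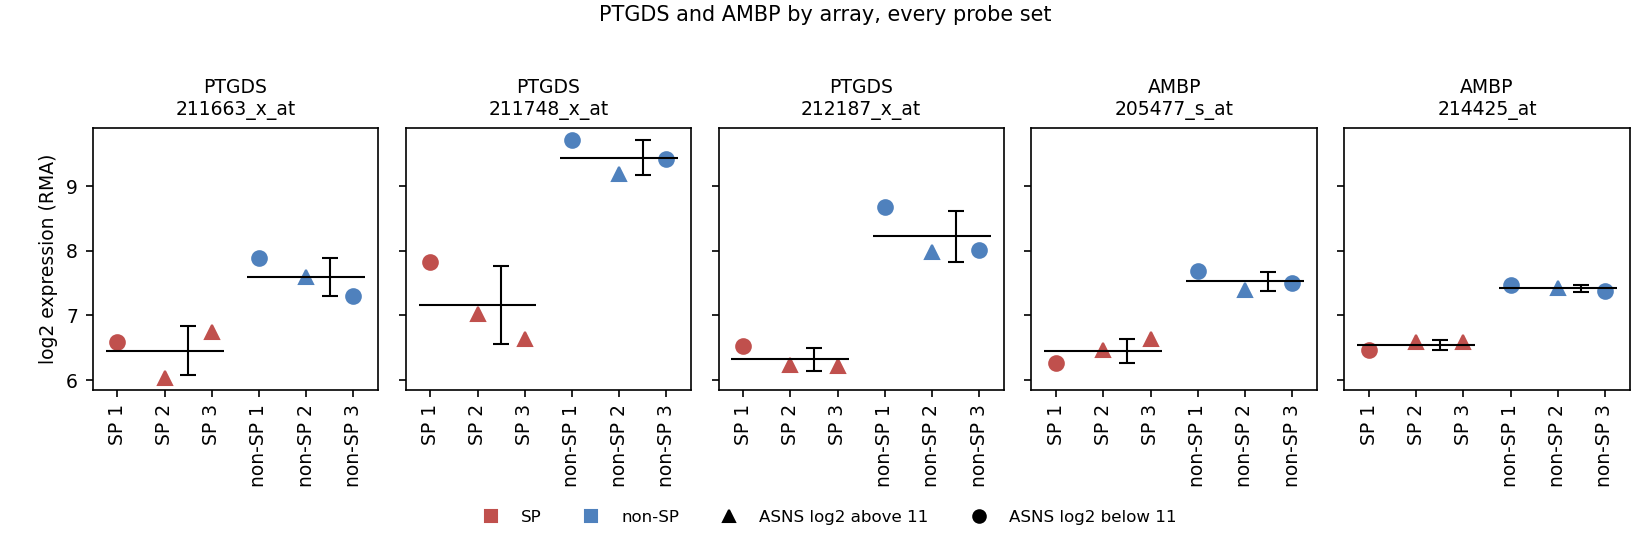
Log2 expression of PTGDS (3 probe sets) and AMBP (2 probe sets) on each array, red for SP and blue for non-SP, triangles for arrays with ASNS above 11. Horizontal lines are group means and bars the SD of 3 samples. In each panel all SP points lie below all non-SP points.

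LCN2 followed another split. Its single probe set, 212531_at, read 5.30, 10.39 and 10.53 in SP 1, SP 2 and SP 3, and 5.04, 10.44 and 6.15 in non-SP 1, non-SP 2 and non-SP 3. Each sorted population thus held both low and high LCN2, and the groups overlapped. SP samples averaged 8.74 ± 2.98 (SD, n = 3), against 7.21 ± 2.85 (SD, n = 3) for non-SP samples, a difference of 1.53 with an SE of 1.86 that exceeds it. The sign turned to -0.14 (SE 0.30) with the ASNS side as a block. LCN2 was chosen by its values on these sides, so this turn is a description. Leaving out 1 sample moved the difference between 0.44 (without non-SP 1) and 3.25 (without SP 1), with 3.15 without non-SP 2.

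ASNS read 9.78, 12.39 and 12.43 in SP 1 to SP 3 and 9.60, 12.64 and 9.90 in non-SP 1 to non-SP 3. The threshold of 11 therefore fell into an empty range, from 9.90 on non-SP 3, the array just below it, to 12.39 on SP 2, the array just above it. It put 2 SP samples and 1 non-SP sample above, and 1 SP and 2 non-SP samples below. These sides are read from the data and are not groups of the study, so no mean or test is given between them.

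LCN2 read 10.39 to 10.53 on the 3 arrays with high ASNS and 5.04 to 6.15 on the 3 with low ASNS. The nearest arrays of the 2 sides were 4.25 log2 units apart. The high side was tight, with SP and non-SP arrays next to each other, and inside it the SP minus non-SP difference was 0.01. Inside the low side it was -0.29, with non-SP 3 above the other 2. Of all 19775 genes, 3 (0.0152%) had a gap at least as large in that direction: LAMP3, a lysosomal membrane protein, CLGN, a chaperone of the endoplasmic reticulum, and LCN2 itself. LCN2 was itself chosen by this split, so its gap and that share are a description and carry no test. LAMP3 and CLGN are named because of these values. Arrays on the 2 sides also differed in the ACTB 3' minus 5' signal, a measure of RNA length after amplification, which was 2.46 to 2.55 on the high and 2.02 to 2.29 on the low side. The same measure for GAPDH overlapped between the sides, at 0.04 to 0.36 and 0.04 to 0.15. The part of RNA length in the LCN2 values was not tested.

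Neutrophils store LCN2 in their granules, so their markers were read as well. The 6 markers had a summed linear level of 93.1 to 100.1 on arrays with high ASNS and 84.9 to 110.1 on those with low ASNS, and these ranges overlap. Of the 6, 0 had a mean above the median level of all genes and 3 lay under the first quartile on every array. MPO, the granule enzyme myeloperoxidase, read 4.57 to 5.07 over the 6 arrays. S100A9, a calcium-binding protein abundant in these cells, read 4.99 to 5.00 on the high side and 5.01 to 5.14 on the low side. Its sides were only just apart, with 5.000 on SP 2 and non-SP 2 against 5.012 on non-SP 1. S100A9 was the 1 marker of the 6 with sides apart, and 13.7% of all genes were likewise lower on the high side. The part of these markers in the LCN2 values was not tested.

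**Figure D2:**
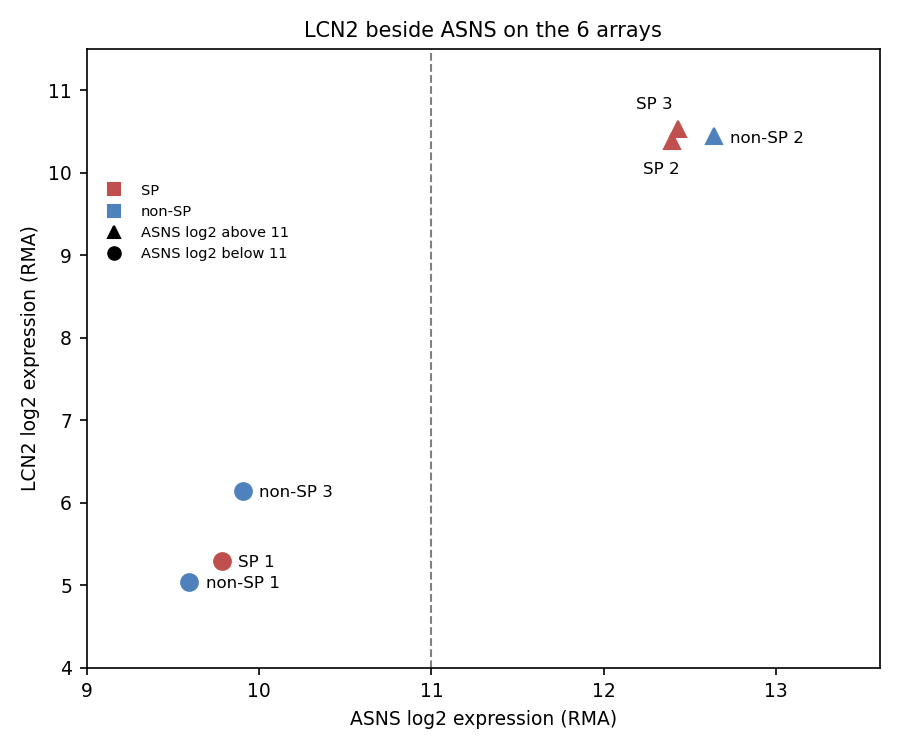
LCN2 against ASNS, both as log2 expression, with 1 point per array, red for SP and blue for non-SP; the dashed line is the ASNS threshold of 11. The 3 arrays to the right of it have LCN2 between 10.39 and 10.53, the 3 to the left between 5.04 and 6.15.

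Between SP and non-SP samples APOD, PAEP, RBP4 and ORM1 on its own probe set had differences of -0.26 to 0.08, while APOM and the probe sets shared by ORM1 and ORM2 had larger ones. APOD read 4.13, 4.44 and 4.41 in SP and 4.01, 4.33 and 4.39 in non-SP samples, a difference of 0.08 (SE 0.16). PAEP read 4.01, 3.70 and 3.87 in SP and 4.17, 3.88 and 3.95 in non-SP samples, a difference of -0.14 (SE 0.14). Both were dim. PAEP lay above the first quartile of the array on 3 of 6 arrays, and its level on the high ASNS side (3.70 to 3.88) was just under that on the low side (3.95 to 4.17).

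RBP4 read 5.27, 5.85 and 5.10 in SP and 5.17, 5.51 and 5.41 in non-SP samples on 219140_s_at, a difference of 0.04 (SE 0.22). Its other probe set, 222049_s_at, differed by -0.26 (SE 0.17), so the direction of RBP4 depended on the probe set, and the groups overlapped on both.

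APOM read 6.48, 5.69 and 5.40 in SP and 6.04, 6.51 and 6.16 in non-SP samples on 205682_x_at, a difference of -0.38 (SE 0.29). SP 1 was above 2 of the non-SP samples there, and the SP minus non-SP difference was -0.97 among arrays of high ASNS and 0.37 among those of low ASNS. On 214910_s_at it read 4.40, 4.52 and 4.42 in SP and 4.62, 5.29 and 4.98 in non-SP samples, a difference of -0.52 (SE 0.19), and the groups were just apart, SP 2 and non-SP 1 differing by -0.097.

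ORM1 read 5.02, 5.41 and 5.41 in SP and 5.39, 5.22 and 5.10 in non-SP samples, a difference of 0.04 (SE 0.16). The 2 probe sets that ORM1 and ORM2 share, neighbouring and nearly identical genes, cannot be assigned to either. One of them, 205041_s_at, read 4.23 to 4.46 in SP and 4.27 to 5.25 in non-SP samples. The other, 214465_at, read 2.68 to 3.36 in SP and 3.11 to 4.23 in non-SP samples, a difference of -0.89 (SE 0.34). It was above the negative controls on 4 of 6 arrays, and SP 3 and non-SP 3 went against the order of the others.

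**Figure D3:**
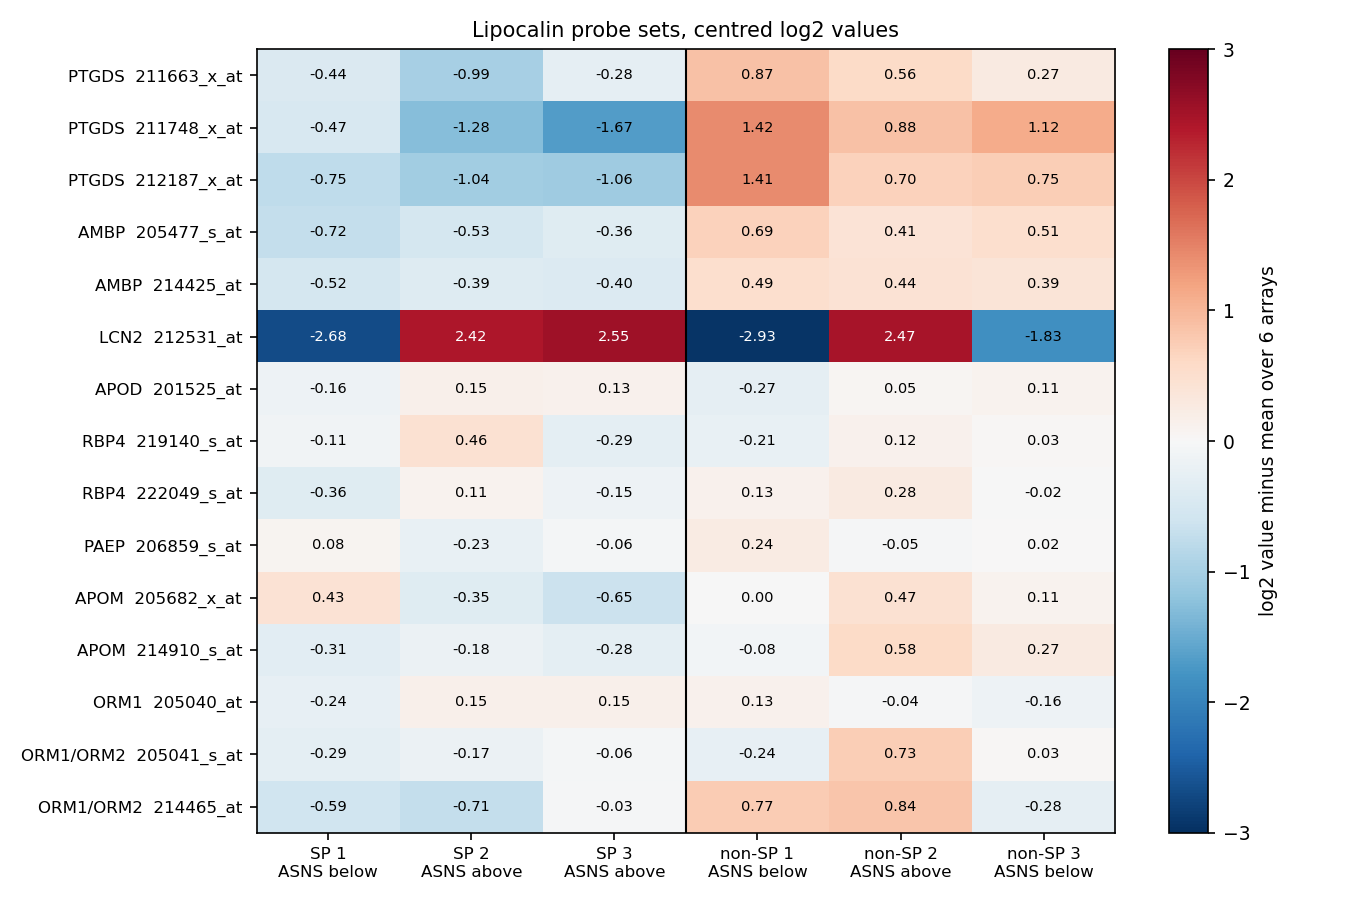
Log2 value minus the mean over the 6 arrays for the 15 lipocalin probe sets (rows) on each array (columns). PTGDS and AMBP rows change colour at the line between SP and non-SP, and the LCN2 row follows the arrays with high ASNS, with values near 2.5 log2 units above and 1.83 to 2.93 below its mean.

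Counted over the 8 members with their own probe set, 4 differences were below 0 and 4 above, with a median of -0.05, against -0.02 over all genes. None of the 8 passed an adjusted p of 0.05 in the limma fit across all genes, in which 1 gene, or 0.00506%, was called, and 1340 genes (6.78%) had an unadjusted p under 0.05. The groups did not overlap with SP lower for 2 of 8 members, PTGDS and AMBP, and for 7.1% of all genes, and with SP higher for 0 members and 4.78% of all genes (11.9% in either direction). Since this contrast chose members, nothing is read from these counts. By size alone, 11 of 19775 genes (0.0556%) had a difference at or below that of PTGDS and 108 (0.546%) one at or below that of AMBP. Between the ASNS sides, LCN2 lay higher on the high side without overlap, as did 13.1% of all genes, and PAEP lower, as did 13.7%. Over 1 gene in 4 (26.9%) thus divided the arrays in this way.

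**Figure D4:**
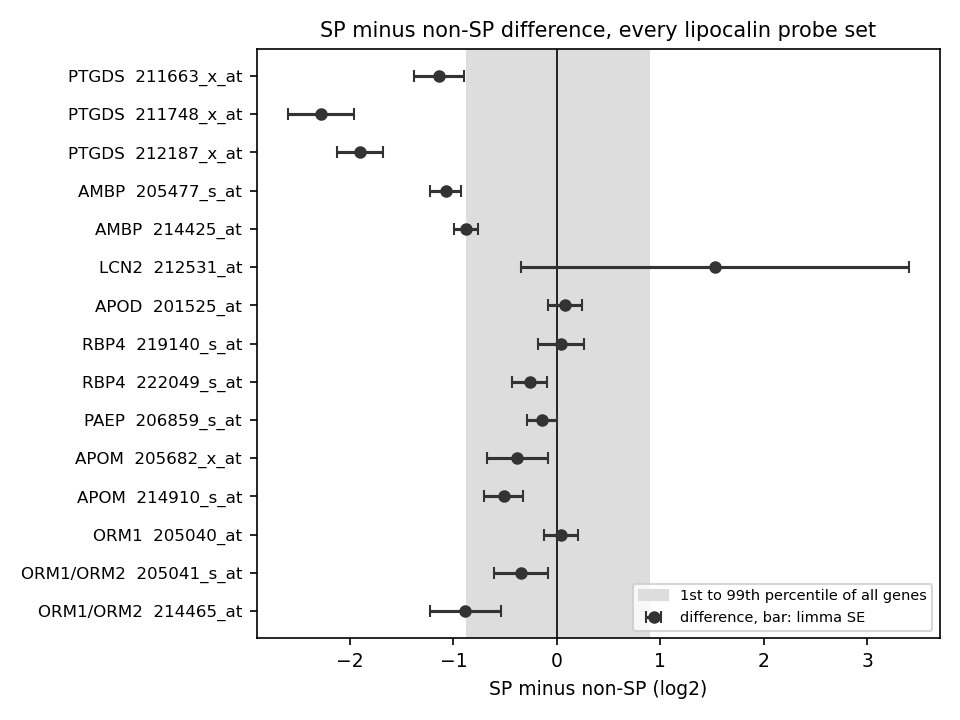
SP minus non-SP difference (log2) for each lipocalin probe set, with the limma standard error from the fit of all probe sets. The grey band spans the 1st to 99th percentile over all genes, -0.87 to 0.89. The points of PTGDS and of AMBP on 205477_s_at lie outside it to the left, AMBP on 214425_at and the shared ORM1 and ORM2 probe set 214465_at lie at its edge, and the LCN2 bar runs from within it to far right.

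Among genes above the median level of 6.27, members left out, the profile of PTGDS over the 6 arrays was most like those of UGT1A6, CCBE1 and FAM83A. Likeness was the root mean square distance between mean-centred log2 profiles, and it was 0.32, 0.36 and 0.38 where the spread of PTGDS itself was 1.20. UGT1A6, a glucuronosyltransferase, read 6.01, 6.12 and 5.08 in SP and 7.83, 7.73 and 8.04 in non-SP samples; genes of the UGT1A locus share exons, so its signal may include others. CCBE1, which helps activate a lymphatic growth factor, read 7.45, 6.36 and 6.76 in SP and 8.74, 8.73 and 8.62 in non-SP samples. For AMBP, with a spread of 0.55, the nearest were PROS1, the anticoagulant protein S (distance 0.14), the histone gene H2AC6 (0.18) and ID2, an inhibitor of helix-loop-helix factors (0.19). PROS1, made in liver as AMBP is, read 7.27, 7.53 and 7.50 in SP and 8.43, 8.08 and 8.23 in non-SP samples.

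For LCN2, with a spread of 2.50, the nearest were NRCAM, a cell adhesion molecule (0.70), NUPR1, a stress-induced nuclear protein (0.82), and INHBE, an activin subunit (0.85). NRCAM read 10.27, 10.35 and 10.09 on the arrays of high ASNS, SP 2, SP 3 and non-SP 2, and 6.46 to 6.54 on the others. NUPR1 read 9.71 to 10.49 on the high side and 6.11 to 6.74 on the low side. All profiles share the same 6 arrays, and the distances are descriptions.

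Genes that act with the lipocalins were counted in the fit across all genes, where 0 members of any of the lists described here passed the adjusted threshold. Over all genes 54.7% had a difference below 0 (median -0.02), and 3.07% were higher and 3.71% lower at an unadjusted p under 0.05, the shares against which each list's counts are to be read. Of the 9 measured genes in a list of other lipocalins, 7 had a difference below 0 (median -0.17) and 1 had an unadjusted limma p under 0.05: LCN12, an epididymal lipocalin, at 5.63, 5.84 and 5.51 in SP and 6.51, 6.25 and 5.90 in non-SP samples (-0.56, SE 0.19, limma adjusted p = 0.644). All 9 lay below the median level. LCN6 and LCN8 both differed by -0.29 (SE 0.14 and 0.15), also with groups apart, as were 7.1% of all genes with SP lower. LCN6 was dim, at 3.09 to 3.65 and under the first quartile on every array, and LCN8 read 4.18 to 4.84.

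In the list for prostaglandin D2, which PTGDS makes, 4 of 7 genes were below 0 (median -0.04) and 1 had an unadjusted p under 0.05. That gene was PPARG, a nuclear receptor that can respond to a breakdown product of prostaglandin D2. PPARG read 5.52, 5.45 and 5.90 in SP and 7.07, 7.16 and 6.97 in non-SP samples (limma adjusted p = 0.101). PTGS1, a cyclooxygenase upstream of PTGDS, differed by -0.86 (SE 0.47) with overlapping groups, and the prostaglandin D2 receptor PTGDR2 by -0.24 (SE 0.15).

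The list of lipocalin receptors and protein partners had 6 of 15 genes above 0 and 9 below (median -0.06), with 0 higher and 2 lower at an unadjusted p under 0.05. These were ITIH3 (-0.35, SE 0.14) and ITIH2 (-0.75, SE 0.29), heavy chains that are joined to the bikunin part of AMBP (limma adjusted p = 0.703 and 0.714). Of the endocytic receptor partners of filtered lipocalins, DAB2 differed by 0.69 (SE 0.30) and CUBN by 0.30 (SE 0.14), CUBN being near the negative controls at 2.63 to 3.21. DAB2 read 3.92 to 5.43, and its groups met at 4.26 on SP 1 and non-SP 2. Only 4 of the 7 DAB2 probe sets had this sign.

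The list of LCN2 regulators had 7 of 9 genes above 0 (median 0.12), with 2 higher and 0 lower at an unadjusted p under 0.05. NFKBIZ, a cofactor through which LCN2 is known to be induced, read 9.93, 9.68 and 9.68 in SP and 8.76, 8.59 and 8.87 in non-SP samples (1.02, SE 0.14, limma adjusted p = 0.152). IL1R1, an interleukin 1 receptor, read 9.81, 9.04 and 9.49 in SP and 8.64, 7.73 and 8.88 in non-SP samples (1.03, SE 0.34, limma adjusted p = 0.619). Both divided the samples by sort, with all SP values higher, whereas LCN2 divided them by ASNS side. These 2 were picked by their SP minus non-SP p. Of the 9 regulators, 1 lay higher and 2 lower on the high ASNS side without overlap, against 13.1% and 13.7% of all genes. CEBPD differed by 0.35 (SE 0.15) and RELA by 0.21 (SE 0.12).

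**Figure D5:**
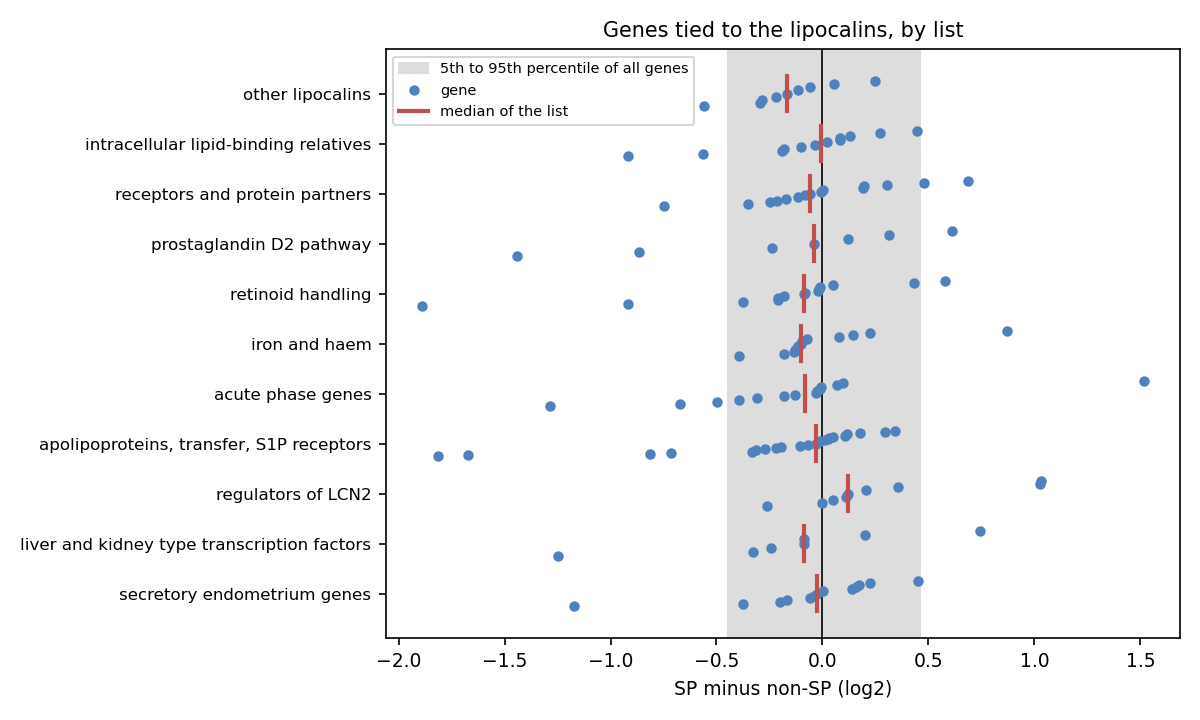
SP minus non-SP difference (log2) of each measured gene in 11 lists of genes tied to the lipocalins, 1 point per gene, with the list's median as a red line. The grey band spans the 5th to 95th percentile over all genes, -0.45 to 0.46, and holds every median.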

How the data were processed

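RNA of 3 SP and 3 non-SP samples was measured on arrays. The file holds log2 expression values deposited by the authors, made with R 2.8.1, affy and RMA per the submitters' processing notes, and no other setting is stated. RMA puts arrays on 1 distribution, which hides a global change in RNA and shrinks differences close to background. Precision is limited by the number of arrays.

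Of 54613 probe sets other than 62 controls, 41091 carried 1 gene symbol in the platform annotation, 1801 several and 11721 none here. Symbols were matched by Entrez ID to RefSeq (GRCh38.p14) for 41037. Each of 19775 genes was represented by its probe set of highest average level. SP minus non-SP was fitted in limma (version 3.58.1, R version 4.3.3) with lmFit and eBayes, two-sided and without a block, with Benjamini-Hochberg adjustment over all genes and a threshold of 0.05. Standard errors of further probe sets come from a like fit on all probe sets. On simulated data with 200 changed genes the fit was tested first. Python 3.11.15, pandas 2.3.3 and matplotlib 3.10.9 made tables and figures.

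The members and lists were chosen with earlier results of these data known. The text names all members, ASNS, up to 4 genes of each list by unadjusted p, marker genes, and the 3 genes most alike in profile to PTGDS, AMBP and LCN2. Replicate numbers are shared between groups, and the labels do not say whether they pair the samples. Correlations of deviations were 0.45, 0.38 and -0.21 for numbers 1, 2 and 3. They do not settle the question, and the main fit has no block. Alternatives were averaging the probe sets of each gene, testing all probe sets singly, keeping only genes above the median level, normalizing by cyclic loess or by array medians, a robust prior with an intensity trend, array weights, a replicate block, the ASNS side as a block and leaving out each sample.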

Additional observations from a re-analysis of the deposited data

How the results depend on the processing

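The SP minus non-SP differences of PTGDS and AMBP kept their sign under every alternative run, from -2.61 to -2.02 and from -1.16 to -0.98 with 1 sample left out. This contrast chose both genes, and every SP value lay below every non-SP value on each of their probe sets. Leaving out a sample, or averaging or separating probe sets, therefore could not turn the sign. With the mean of its probe sets PTGDS differed by -1.77, on 211663_x_at alone by -1.14, and AMBP on 214425_at alone by -0.88. LCN2 ranged from 0.44 to 3.25 with 1 sample left out and turned to -0.14 with the ASNS side, by which it was chosen, as a block. The small differences of 3 other members changed sign. RBP4 was -0.11 with the mean of its probe sets, -0.26 on 222049_s_at, -0.027 with the ASNS side as a block and -0.18 to 0.20 with 1 sample left out. ORM1 was -0.019 with that block and -0.027 to 0.17 with 1 sample left out, and APOD was -0.037 to 0.18.

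Over all genes, 0 were called higher and 1 lower. Array weights gave 4 higher and 8 lower, the ASNS side as a block 1 and 4, and the replicate block 1 and 2. Whether the replicate numbers pair the samples is not known. The lower count was 0 when probe sets of 1 gene were averaged and 0 among genes above the median level, where the called gene, LINC00518, is not tested. With 1 sample left out it was 1 to 2, the 2 without SP 1, and the higher count 0. Other causes were not tested. A block read from the values tested makes its p-values too small. The array medians and RMA leave differences near the negative controls, as for 214465_at, with little meaning.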

Other observations

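Genes of plasma proteins and lipid carriers that share cargo or tissue with the lipocalins were also read. Over all genes, 54.7% of differences were below 0 (median -0.02), 3.07% of genes were higher and 3.71% lower at an unadjusted limma p under 0.05, and 7.1% had all SP values below all non-SP values. Of 14 measured acute phase genes, the group to which ORM1 and ORM2 belong, 11 had a difference below 0 (median -0.08) and 0 passed the adjusted limma threshold. At an unadjusted limma p under 0.05, 0 were higher and 3 lower: HP, the haemoglobin carrier haptoglobin (-0.40, SE 0.13), FGB (-1.29, SE 0.43) and FGA (-0.67, SE 0.23). SP values lay below all non-SP values for each. FGA was dim, at 2.69 to 3.82, and on SP 3 (2.69) lay under the negative control average of that array, 2.91. C3, the central complement protein, read 7.37, 8.89 and 8.75 in SP and 7.07, 7.92 and 5.46 in non-SP samples. It was higher on each array of high ASNS than on any of low ASNS. Of the 14 genes, 2 lay so and 0 the other way, against 13.1% and 13.7% of all genes. In the iron and haem list (13 measured, median -0.10, 0 called, 1 lower at an unadjusted p under 0.05), HMOX1, which breaks down haem, read 10.34, 10.42 and 9.25 on the arrays of high ASNS and 8.65 to 8.80 on the others. Of the 13 genes, 4, HMOX1 among them, were higher on the high ASNS side without overlap and 3 were lower.

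Of 23 apolipoprotein, lipid transfer and sphingosine 1-phosphate receptor genes, 14 were below 0 (median -0.03) and 0 passed limma's adjusted threshold. At an unadjusted limma p under 0.05, 0 were higher and 4 lower, against 3.07% and 3.71% of all genes. APOC1, a lipoprotein component, read 7.77, 7.55 and 7.48 in SP and 8.52, 8.14 and 8.29 in non-SP samples (-0.72, SE 0.15, limma adjusted p = 0.411). S1PR1, a receptor for the lipid that APOM carries, read 2.82, 1.72 and 2.10 in SP, below the negative controls on the latter 2 arrays, and 3.75, 3.01 and 5.32 in non-SP samples. Of the retinoid handling list (14 measured, 11 below 0, median -0.09, 0 called, 1 higher and 2 lower at an unadjusted limma p under 0.05), CRABP2, a cellular retinoic acid carrier of the same structural superfamily, read 6.68, 6.13 and 6.59 in SP and 7.59, 7.04 and 7.52 in non-SP samples (-0.92, SE 0.21, limma adjusted p = 0.474). CRABP2 was also the 1 of 12 measured intracellular lipid-binding relatives at an unadjusted p under 0.05 (median -0.01, 0 called).

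In the list of liver and kidney type transcription factors (7 measured, 5 below 0, median -0.09, 0 called by limma, 0 higher and 1 lower at an unadjusted p under 0.05), NR5A2, a nuclear receptor of liver, read 5.62, 7.06 and 7.12 in SP and 8.34, 7.59 and 7.62 in non-SP samples. In the list of secretory endometrium genes, to which PAEP belongs (13 measured, median -0.02, 0 called, 1 higher and 0 lower at an unadjusted p under 0.05), FOXO1, a transcription factor of decidual cells, differed by 0.45 (SE 0.15). Of markers of other cells, those of leukocytes (4 measured), fibroblasts (5) and endothelium (5) had 0 genes at an unadjusted limma p under 0.05 and 0 called. Summed linear levels were 67.7 to 73.8 in SP and 66.3 to 77.7 in non-SP samples for leukocytes, 201.3 to 208.1 and 215.2 to 228.9 for fibroblasts, and 236.6 to 263.4 and 254.5 to 279.5 for endothelium. The fibroblast sums thus lay apart, lower in SP, while those of leukocytes and endothelium overlapped.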
